A study of Mus musculus with 8 samples.

Results

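The genes of cholesterol and fatty acid synthesis were examined in regulatory T cells (Tregs, the CD4 T cells that express Foxp3 and restrain immune responses) of injured mouse muscle and of spleen. The 32 members were taken by gene symbol: 22 of the sterol branch and 10 of the fatty acid branch, out of 38406 rows of the deposited count table. Of these, 31 were found under their own symbol and Msmo1 under its older symbol Sc4mol. A filter on low counts left 30 members among 14772 genes tested, all 22 sterol genes and 8 fatty acid genes. Scd1 and Fads2 did not pass it.

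The mice were male C57BL/6, with no allele, transgene or drug given in the labels. Young mice were 2 months old and aged mice older than 6 months. Leg muscles of all mice had been injured with cardiotoxin, a snake venom toxin that kills muscle fibres, at 0.9 µg per muscle, and both tissues were taken 4 days later. There were therefore no Tregs of uninjured muscle, and the spleen Tregs came from injured mice too. The 4 groups (spleen and muscle Tregs, each from young and from aged mice) had 2 libraries each, and each library was made from 1500 sorted Tregs whose RNA was amplified. The series calls the pairs biological duplicates and does not say whether animals were pooled. The p-values reflect the spread between the 2 libraries within groups, estimated over the 4 groups together. With bulk RNA, a change in the share of cells that express a gene and a change in RNA per cell cannot be told apart.

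Cholesterol is built from acetyl-CoA through mevalonate, isoprenoids, squalene and lanosterol, and fatty acids are built from acetyl-CoA through malonyl-CoA and then elongated and desaturated. Transcription of most genes of both branches is driven by the SREBP factors encoded by Srebf1 and Srebf2. These are held in the endoplasmic reticulum with the escort protein SCAP by INSIG proteins when sterols are plentiful, and are cut and released when sterols are scarce. T cells raise both branches when they are activated and divide, since new membranes need sterols and fatty acids.

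SREBPs bind sterol regulatory elements, often beside CCAAT boxes, which bind NF-Y. The bases upstream of the RefSeq gene start (GRCm38.p6) are given for the SREBP gene Srebf2, which fell in aged spleen, for Hmgcs1, the member with the longest match to an SREBP site, and for Ebp and Elovl6, which were higher in muscle. Each is written 5′ to 3′ on the strand of its gene, ending at the last base that lies outside the gene in both RefSeq and GENCODE M21. Capitals mark the motif TCACNCCAC or its shorter form TCACCCCA, which overlaps it and was added after the sequences were seen, and CCAAT, which appears as ATTGG on the other strand. The coordinates are chr15:82147019-82147180 (plus strand) for Srebf2, chr13:119690101-119690350 (plus) for Hmgcs1, chrX:8193513-8193762 (minus) for Ebp and chr3:129532136-129532354 (plus) for Elovl6.
Srebf2: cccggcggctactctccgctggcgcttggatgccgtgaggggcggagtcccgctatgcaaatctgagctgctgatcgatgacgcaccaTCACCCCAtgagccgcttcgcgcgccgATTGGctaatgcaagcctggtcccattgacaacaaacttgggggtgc
Hmgcs1: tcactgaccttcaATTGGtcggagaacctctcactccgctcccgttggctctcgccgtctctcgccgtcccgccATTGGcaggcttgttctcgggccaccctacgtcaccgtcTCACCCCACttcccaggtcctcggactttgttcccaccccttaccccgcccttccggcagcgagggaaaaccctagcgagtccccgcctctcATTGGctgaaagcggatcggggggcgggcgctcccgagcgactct
Ebp: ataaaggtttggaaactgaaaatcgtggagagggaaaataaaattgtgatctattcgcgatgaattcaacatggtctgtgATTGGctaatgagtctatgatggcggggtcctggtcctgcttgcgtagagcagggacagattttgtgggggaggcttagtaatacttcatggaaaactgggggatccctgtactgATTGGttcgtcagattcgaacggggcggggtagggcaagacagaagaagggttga
Elovl6: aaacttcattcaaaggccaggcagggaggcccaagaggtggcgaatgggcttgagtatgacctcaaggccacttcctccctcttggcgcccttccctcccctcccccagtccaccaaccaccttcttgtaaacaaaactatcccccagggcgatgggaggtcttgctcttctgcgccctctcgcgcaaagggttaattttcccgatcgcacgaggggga
Of the 32 members, 25 had an upstream sequence in the RefSeq table, 31 sequences in all because some genes have several starts. Both strands of the 250 bases before each start were searched. TCACNCCAC was found in 1 of these 31 sequences (Hmgcs1) and in 1.05% of all 32851. The shorter form was found in 2 of 31 (Hmgcs1 and Srebf2) and in 1.34% of all. CCAAT was found in 20 of 31, or 64.5%, against 33.8% of all. The window of Elovl6 held none of these letters in this form. These matches describe the letters and are no evidence of binding.

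Libraries held 1969982 to 4008622 counts. Values are CPM (counts scaled to a fixed library total) scaled by TMM, which corrects for differences in composition, and are not divided by gene length, so they are compared within a gene only. Across genes, the libraries of a group correlated with each other at Spearman values of 0.893 to 0.967. Young muscle replicate 2 correlated at 0.921 and 0.906 with the aged muscle libraries, above the 0.893 with its own replicate. The Treg markers (10 genes) summed to 4200 to 6050 CPM, with Foxp3 at 15.4 to 41.5 CPM. Single markers moved either way with age at an edgeR adjusted p under 0.05. In aged spleen Il2ra (log2 fold change -0.91) and Cd5 (-0.57) were lower and Ikzf2 (0.57) and Tnfrsf18 (0.76) higher. In aged muscle Ctla4 (-0.81) was lower and Ikzf2 (0.73) and Ikzf4 (0.89) higher. The other markers, Foxp3 among them, did not pass in that tissue. Young muscle replicate 1 stood apart: 14 myeloid markers summed to 875 CPM there and to 63.2 to 121 CPM in the other 7 libraries, and 6 fibroblast markers to 393 against 5.21 to 89.6 CPM. The macrophage gene Lyz2 was at 116 CPM in that library and at 0.372 to 12 in the others. The markers differed in this: Csf1r was at 27.8 CPM there and at 21 to 26.4 in the other muscle libraries. Itgam, alone of the 14, was not highest there, at 18.5 CPM against 28 in young muscle replicate 2. Of 9 adipocyte markers, Cfd was at 0 in all libraries, and Adipoq and Plin1 did not exceed 0.981 and 1.69 CPM. Lpl, the one that passed the filter, was at 36.0 to 67.2 CPM in muscle and 16.4 to 21.7 in spleen. Of the 30 members, 25 were higher in young muscle replicate 1 than in replicate 2, against 14 to 18 for the other replicate pairs. The part of these other cells in the members' values was not tested. Values without that library are given beside many, but not all, of the results that use young muscle.

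Summed over the 22 genes, the sterol branch stood in spleen at 1020 CPM in each young library and at 772 and 742 in the aged ones. In muscle it stood at 1060 and 819 CPM when young and at 842 and 760 when aged. Srebf2 made up a large part of that sum. Without it the sums were 614 and 606 CPM in spleen when young and 484 and 499 when aged, and 640 and 475 CPM in muscle when young and 573 and 508 when aged. The 10 fatty acid genes summed to 430 and 415 CPM (young) and 314 and 362 CPM (aged) in spleen, and to 553 and 450 CPM (young) and 425 and 392 CPM (aged) in muscle. In spleen both aged libraries were below both young ones for each sum. Markers of other cells moved between the same groups: 4 erythroid markers summed to 61.2 and 20.9 CPM in young and to 113 and 154 in aged spleen. The endothelial list (5 genes) summed to 316 and 344 against 147 and 177 CPM, nearly all of it Pecam1, which T cells also express. Its other members, Cdh5, Kdr, Esam and Egfl7, did not exceed 0.679 CPM in spleen. The part of these cells in the spleen values was not tested. In muscle the groups overlapped for the sterol sums, and the spread between the 2 young libraries was wider than in any other group.

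**Figure D1:**
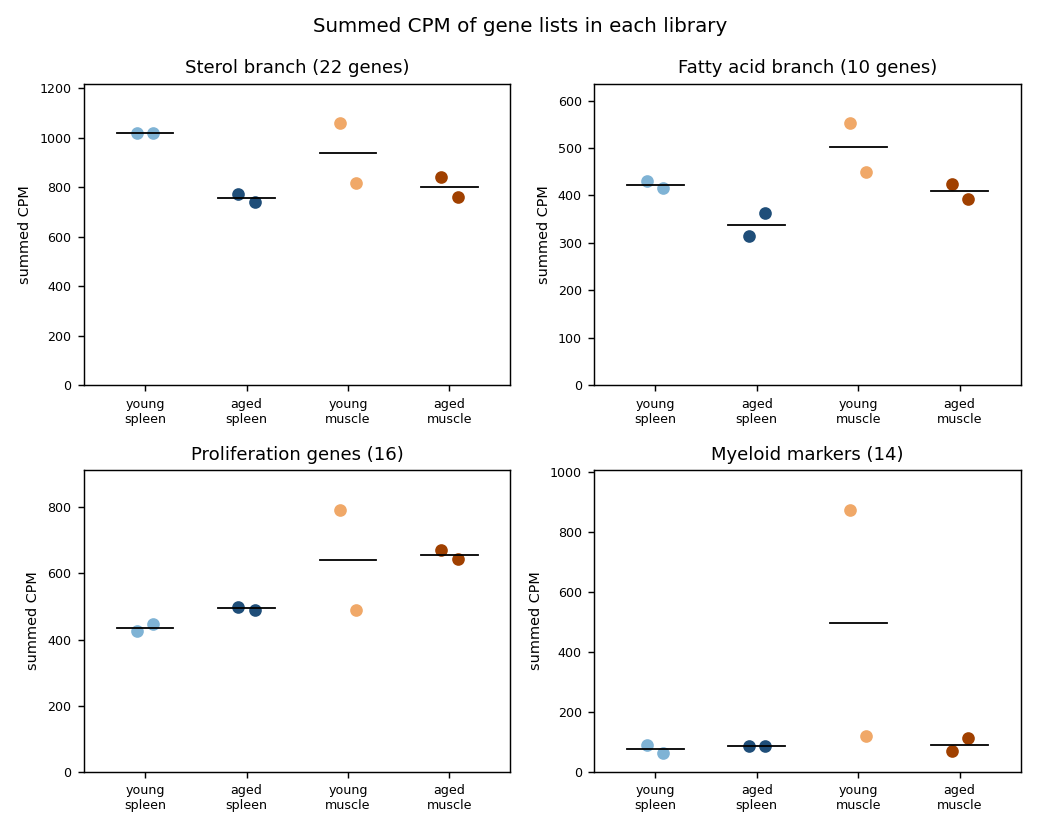
Summed CPM (vertical axes, from 0) of the 22 sterol genes, the 10 fatty acid genes, 16 proliferation genes and 14 myeloid markers in each of the 8 libraries, by group. Points are libraries, replicate 1 left and replicate 2 right, and lines are group means. The sterol sum is 1020 CPM in both young spleen libraries and 772 and 742 in aged spleen, and young muscle replicate 1 alone reaches 875 CPM of myeloid markers.

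Few members passed the test of any comparison. The test was edgeR's quasi-likelihood test on all 14772 genes, and a member passed with a Benjamini-Hochberg adjusted p under 0.05. For age in spleen, 2 of 30 members fell (Msmo1 and Srebf2) and 0 rose (0 also by DESeq2), when 2.17% of all genes fell and 2.08% rose. Before adjustment, edgeR gave a p under 0.05 to 7 members lower and 0 higher in spleen, and to 7.53% and 9.12% of all genes. For age in muscle 0 of 30 passed by edgeR, with 2.02% of all genes passing. There DESeq2 gave 1 (Srebf2, lower), when it gave 3.36% of all genes. Unadjusted, 1 member was higher and 6 lower in muscle at a p under 0.05, with 7.6% and 7.69% of all genes. Without young muscle replicate 1 the 6 became 1, with 4.39% of all genes. For the difference of the age effects, muscle minus spleen, 0 of 30 passed by edgeR (2.52% of all genes) or by DESeq2 (3.32%), and 5 had an unadjusted p under 0.05 by edgeR (13% of all genes). For muscle against spleen, 6 of 30 passed in young mice, 2 higher and 4 lower in muscle, when 11.4% of all genes were higher and 10.9% lower. In aged mice 3 of 30 passed, 2 higher and 1 lower, when 9.57% and 9.27% of all genes did.

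In spleen most members had lower values in aged than in young Tregs, past the threshold or not. With age in spleen 23 of 30 log2 fold changes were below 0, against 46.7% of all genes, and for 15 of 30 both aged libraries lay below both young ones, against 24% of all genes. The median was -0.36 in the sterol branch and -0.33 in the fatty acid branch, against 0.05 over all genes. With age in muscle the medians were -0.02 and -0.44 against 0.03, and 19 of 30 were below 0, against 47.9% of all genes. Both aged libraries lay below both young ones for 10 of 30 members there, against 20.3%. Those muscle counts depended on young muscle replicate 1, which was above replicate 2 for 25 of 30 members. Leaving it out was therefore bound to shrink most falls. The counts were not repeated without replicate 2, and 2 libraries cannot show which is nearer the level of the group. With replicate 1 left out, 12 of 30 were below 0, against 44.9% of all genes. Both aged libraries then lay below the remaining young one for 12 of 30 members and above it for 13, against 30.8% and 35.4%. Scaling by library size alone moved the median of all genes to 0.21 for age in spleen and 0.15 for age in muscle. Relative to that median, the spleen values were -0.41 and -0.38 under either scaling. The sterol median for age in muscle changed sign with that scaling (0.09) and without young muscle replicate 1 (0.24). The fatty acid median for age in muscle, over 8 genes, ran from -0.49 to -0.31 when any 1 library was left out. Relative to the median of all genes it was -0.47 under either scaling.

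**Figure D2:**
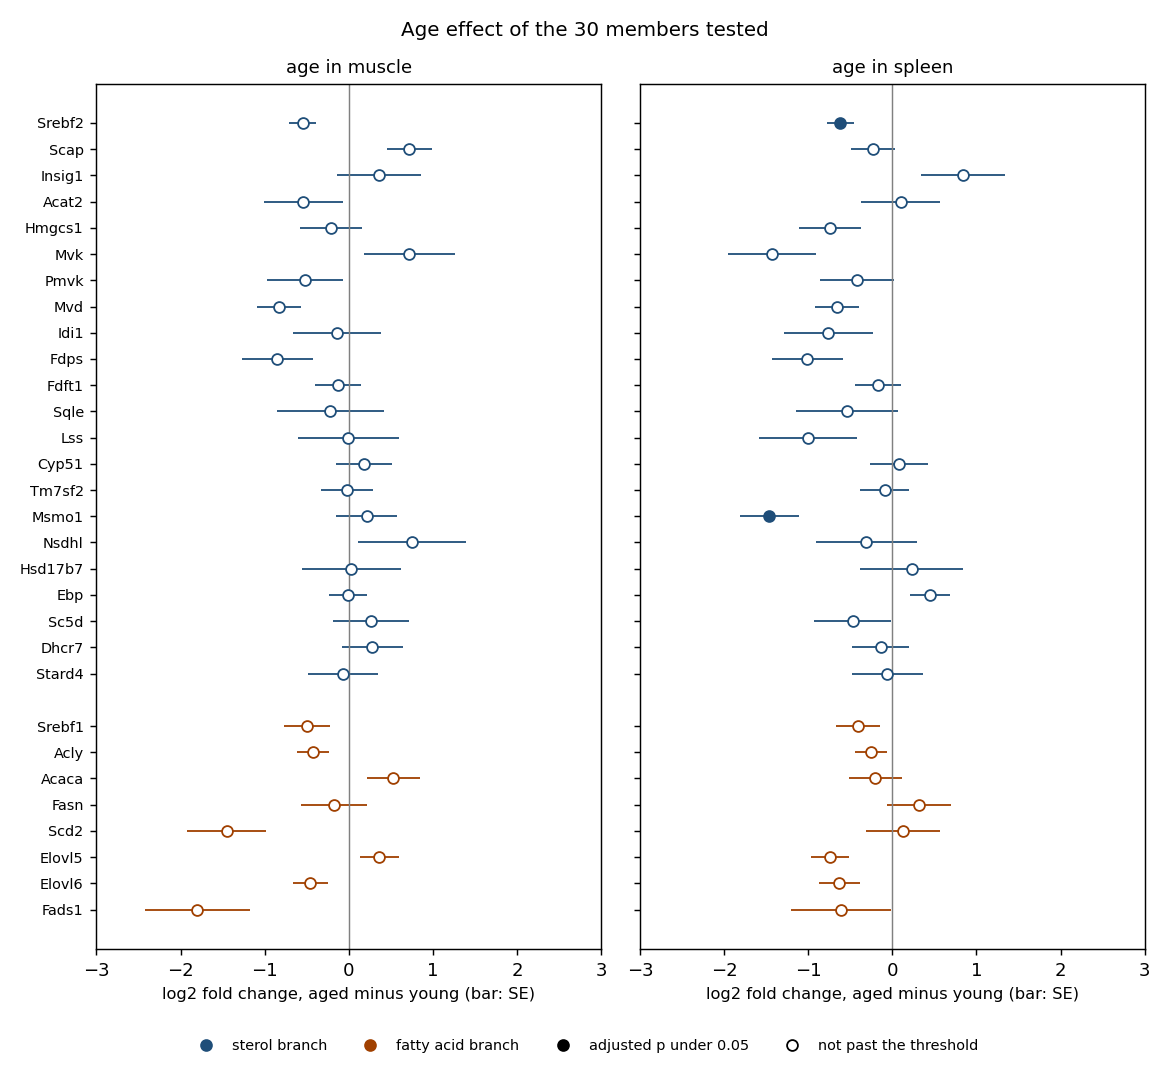
Log2 fold change, aged minus young (horizontal axes), of the 30 members tested in muscle (left) and spleen (right), with bars of 1 SE. Sterol genes are in blue and fatty acid genes in brown, and filled points passed an adjusted p under 0.05. Msmo1 (-1.46) and Srebf2 (-0.62) in spleen are the filled points, and 23 of 30 points on the right lie below 0.

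Of the regulators, Srebf2 encodes SREBP2, the factor that mainly drives sterol genes (chromosome 15, 82147181 to 82205379, plus strand, GENCODE M21 on GRCm38). It was read at 402 and 412 CPM in spleen when young and 288 and 243 when aged, and at 420 and 344 CPM in muscle when young and 269 and 252 when aged. Both aged groups lay below both young groups with no overlap. It fell with age in spleen by 0.62 ± 0.16 on the log2 scale (SE, n = 2 libraries a group; edgeR adjusted p = 0.038, DESeq2 0.0027). In muscle its log2 fold change was -0.55 ± 0.16 and did not pass by edgeR (adjusted p = 0.095), though it did by DESeq2 (adjusted p = 0.021) and without young muscle replicate 2 (-0.69). Without young muscle replicate 1 it was -0.40 (edgeR adjusted p = 0.46). Without any 1 of the 4 spleen libraries the value in spleen was -0.50 to -0.74. The call was lost in those fits, which leave 1 library in a group and in which fewer of all genes passed. The same limit holds for the other age calls in spleen below. Under library-size scaling (-0.45) the call of Srebf2 was lost too.

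Scap, which encodes the escort of both SREBPs, showed a different order. Its libraries were read at 43.5 and 45.3 CPM (young) and 36.5 and 39.4 CPM (aged) in spleen, and at 27.4 and 24.0 CPM (young) and 44.3 and 40.2 CPM (aged) in muscle. Young muscle was thus below each of the other groups. Scap was lower in young muscle than in young spleen, with a log2 fold change of -0.79 ± 0.27 (edgeR adjusted p = 0.048), a call kept under 1 of 14 alternatives. It ended with DESeq2 (-0.75), without filtering (-0.81), and without any 1 library other than aged muscle replicate 2 (-0.70 to -0.89). Its age differences were 0.72 ± 0.27 in muscle (edgeR adjusted p = 0.21) and -0.23 ± 0.26 in spleen, neither past the threshold, and 13.2% of its exonic bases overlap a transcript model of unclear type on the other strand.

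Insig1, which encodes a sterol-sensing anchor of SCAP and is itself an SREBP target, was read at 5.61 and 15.5 CPM in spleen when young and 20.3 and 18.0 when aged, and at 12.5 and 12 CPM in muscle when young and 15.3 and 16.1 when aged. The aged libraries were above the young ones in both tissues, but the 2 young spleen libraries differed by more than the groups did. Its log2 fold changes were 0.84 ± 0.50 in spleen and 0.36 ± 0.50 in muscle (edgeR adjusted p = 0.43 and 0.78). Srebf1, which encodes SREBP1, the main driver of fatty acid genes, was at 53.7 and 67.8 CPM (young) and 51.0 and 40.4 CPM (aged) in spleen, and at 49.1 and 55.9 CPM (young) and 44.3 and 29.6 CPM (aged) in muscle. Aged libraries were below young ones in both tissues, with log2 fold changes of -0.41 ± 0.26 and -0.50 ± 0.27, neither past the threshold (edgeR adjusted p = 0.48 and 0.40).

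The 5 mevalonate genes, Acat2, Hmgcs1, Mvk, Pmvk and Mvd, encode steps from acetyl-CoA to isopentenyl diphosphate. With age in spleen 4 of the 5 had both aged libraries below both young ones, against 24% of all genes. In muscle 3 of the 5 did, against 20.3%. The log2 fold changes of the 5 in spleen ran from -1.43 (Mvk) to 0.10 (Acat2), none past the threshold. Mvk, mevalonate kinase, was at 22.4 and 32.9 CPM in spleen when young and 7.85 and 12.9 when aged, and at 13.7 and 5 CPM in muscle when young and 11.9 and 19.5 when aged. Young spleen stood above every other library. Mvk was lower in young muscle than in young spleen by a log2 fold change of -1.55 ± 0.53 (edgeR adjusted p = 0.049). That call was kept under 4 of 14 alternatives. It ended with DESeq2 (-1.52), with the other scalings (-1.51 and -1.45), without either young spleen library (-1.80 and -1.24), either aged spleen library (-1.55 for each) or young muscle replicate 2 (-1.02), and was -2.46 without young muscle replicate 1. The difference of its age effects was 2.15 ± 0.75 (edgeR adjusted p = 0.18), and 3.07 without that library, when it passed.

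Mvd, mevalonate diphosphate decarboxylase, was at 62.2 and 67.0 CPM (young) and 34.8 and 47.2 CPM (aged) in spleen, and at 61.6 and 46.0 CPM (young) and 30.5 and 30 CPM (aged) in muscle. Its aged libraries were below the young ones in both tissues. The log2 fold changes were -0.66 ± 0.26 in spleen and -0.83 ± 0.26 in muscle (edgeR adjusted p = 0.19 and 0.14), and the latter was -0.60 without young muscle replicate 1 (edgeR adjusted p = 0.53) and -1.02 without replicate 2, when it passed. Hmgcs1, the HMG-CoA synthase whose upstream match to the SREBP motif is shown above, ranged from 15.4 to 43.5 CPM, Pmvk from 11.2 to 20.6 and Acat2 from 10.1 to 25.7. Mouse Acat2 has a close copy, Acat3, with which reads could be shared.

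Idi1 and Fdps, which make the isoprenoid units, ranged from 7.80 to 22 and from 11.9 to 43.5 CPM. Both were lower in aged than in young spleen in every library, at log2 fold changes of -0.76 and -1.01 that did not pass, and 26.7% of the exonic bases of Fdps are shared with another coding gene model on its strand. Fdft1, Sqle and Lss turn farnesyl diphosphate into squalene and lanosterol. They ranged from 39.5 to 65.9, 3.50 to 26.2 and 5.92 to 15.9 CPM, and 0 of these 3 passed in any comparison by edgeR or DESeq2, or had an unadjusted p under 0.05. Fdft1 shares 18.3% of its exonic bases with Ctsb on the other strand. Sqle differed most between the young muscle libraries among the 30 members, at 18.9 and 3.50 CPM.

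The 8 genes of the later steps, from lanosterol to cholesterol, differed in direction: between tissues, Ebp was higher in muscle and Msmo1 and Tm7sf2 lower in young mice. Msmo1 (chromosome 8, 64718139 to 64733792, minus strand), which encodes the methylsterol oxidase that removes methyl groups from the sterol ring, was at 43.9 and 39.1 CPM in spleen when young and at 16.2 and 13.9 when aged. Young muscle gave 21.3 and 13.5 CPM and aged muscle 18.2 and 22.4. Both young spleen libraries were above every other library. Msmo1 fell with age in spleen by 1.46 ± 0.35 on the log2 scale (edgeR adjusted p = 0.029) and was lower in young muscle than in young spleen, at -1.24 ± 0.36 (edgeR adjusted p = 0.022). The first call ended without any 1 spleen library (-1.36 to -1.57) and under library-size scaling (-1.29). The second ended without either young spleen library (-1.16 and -1.33) or young muscle replicate 2 (-0.96), and was -1.62 without young muscle replicate 1. In muscle its age difference was 0.21 ± 0.36, and the difference of the age effects, 1.67 ± 0.51, did not pass (edgeR adjusted p = 0.11).

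Ebp (chromosome X, 8185329 to 8193512, minus strand), the isomerase that shifts the sterol double bond, was higher in muscle. It was read at 59.8 and 44.9 CPM in spleen when young and 66.9 and 76.3 when aged, and at 124 and 98.9 CPM in muscle when young and 130 and 90.5 when aged. Every muscle library was above every spleen library. The log2 fold change was 1.09 ± 0.24 in young mice (edgeR adjusted p = 0.0042) and 0.63 ± 0.23 in aged mice (edgeR adjusted p = 0.067). The first was kept under 13 of 14 alternatives and ended without young spleen replicate 2 (0.90). The second passed without either young muscle library (0.63 for each), without aged muscle replicate 2 (0.86) and under the other scalings (0.67 and 0.68). Without young muscle replicate 1 the value in young mice was 0.92 (edgeR adjusted p = 0.021).

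Tm7sf2, a sterol reductase gene, went the other way, at 43.5 and 67.8 CPM (young) and 49.3 and 55.3 CPM (aged) in spleen, and at 31.4 and 26.5 CPM (young) and 34.6 and 22.4 CPM (aged) in muscle. All muscle libraries were below all spleen libraries. It was lower in young muscle by -0.94 ± 0.30 on the log2 scale (edgeR adjusted p = 0.038), a call that ended with DESeq2 (-0.91), under library-size scaling (-0.83), and without young spleen replicate 2 (-0.58), either aged spleen library (-0.94 for each) or young muscle replicate 2 (-0.83). It was -1.08 without young muscle replicate 1. In aged mice it was at -0.87 ± 0.30 (edgeR adjusted p = 0.056) and passed without either young muscle library (-0.87 for each) or aged muscle replicate 1 (-1.20), without filtering (-0.92) and with only the 2 groups fitted (-0.86). It shares 12.1% of its exonic bases with Vps51 on the same strand. Of the other later genes, Cyp51 ranged from 16.4 to 39.5 CPM, Nsdhl from 7.01 to 23.2, Hsd17b7 from 5.42 to 12.1, Sc5d from 9.16 to 23.0 and Dhcr7 from 13.0 to 38.8. None of these 5 passed in any of the 5 comparisons by edgeR or DESeq2, though Dhcr7 in young and Cyp51 and Sc5d in aged mice had an unadjusted p under 0.05 between tissues. Stard4, a carrier of cholesterol between membranes, ranged from 14 to 30.2 CPM and did not pass either.

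**Figure D3:**
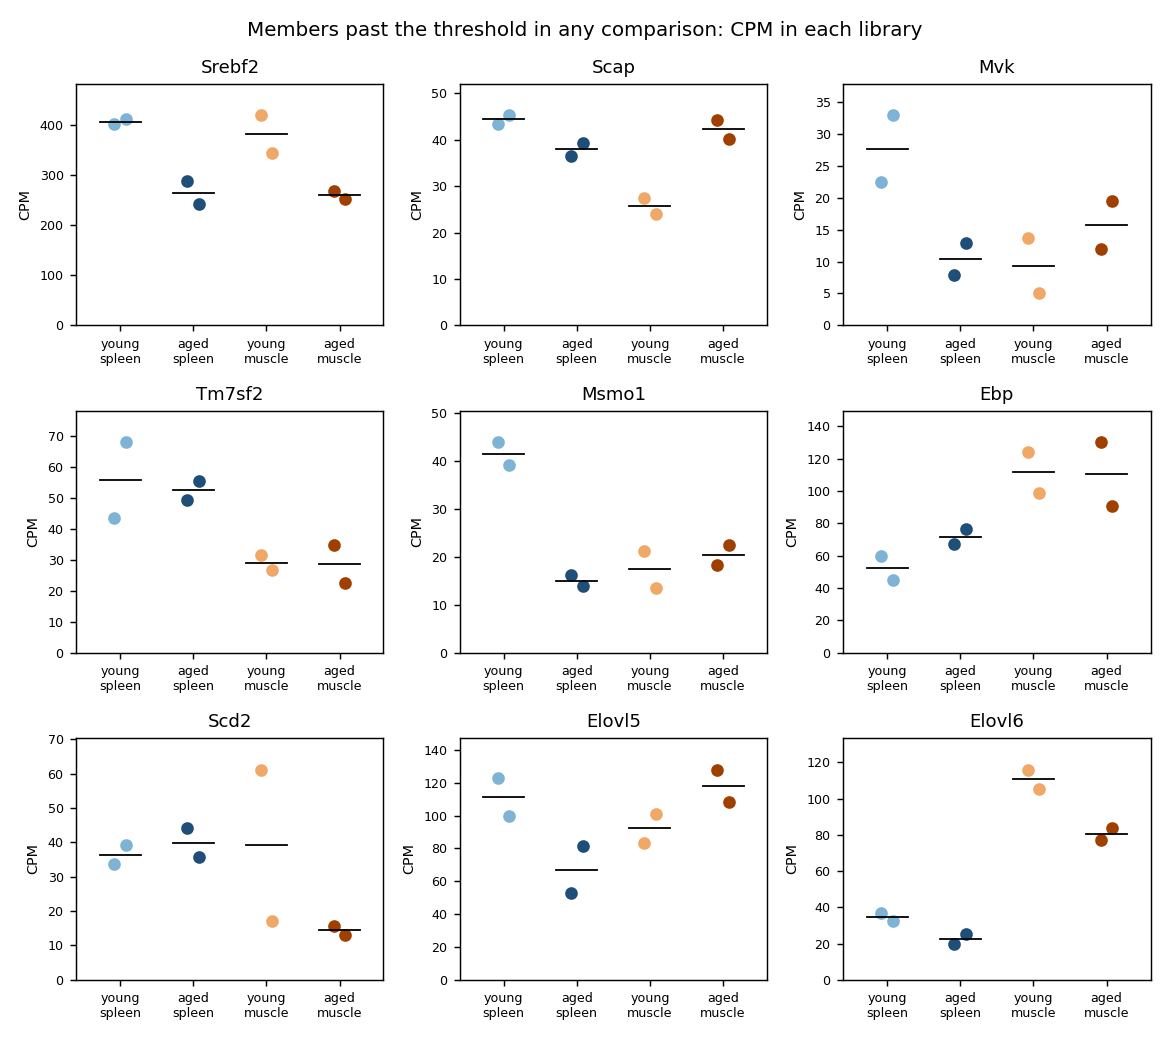
CPM (vertical axes, from 0) of the 9 members that passed an adjusted p under 0.05 in any comparison, in each of the 8 libraries. Points are libraries, replicate 1 left and replicate 2 right, and lines are group means. Elovl6 and Ebp are higher in all 4 muscle libraries than in all 4 spleen libraries, Msmo1 is above 39 CPM in young spleen alone, and the 2 young muscle points of Scd2 lie at 61.2 and 17.0.

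The tissue difference of Elovl6, an elongase gene, was the one call among the members that was kept under every alternative at both ages. Elovl6 (chromosome 3, 129532355 to 129638495, plus strand), which extends C16 fatty acids to C18, was read at 36.9 and 32.5 CPM in spleen when young and 19.9 and 25.1 when aged, and at 116 and 105 CPM in muscle when young and 77.1 and 83.7 when aged. Its 4 groups did not overlap with one another. It was 3.18-fold higher in muscle than in spleen of young mice (log2 fold change 1.67 ± 0.23, edgeR adjusted p = 1e-04) and 3.59-fold higher in aged mice (1.84 ± 0.23, edgeR adjusted p = 7.1e-05). Both calls were kept under all 14 alternatives, from 1.58 to 1.78 in young and from 1.68 to 2.01 in aged mice, and the young value was 1.60 without young muscle replicate 1. With age its log2 fold change was -0.63 ± 0.24 in spleen and -0.46 ± 0.21 in muscle, neither past the threshold (edgeR adjusted p = 0.17 and 0.33).

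Elovl5, which elongates polyunsaturated fatty acids, was at 123 and 100 CPM (young) and 52.7 and 81.4 CPM (aged) in spleen, and at 83.3 and 101 CPM (young) and 128 and 108 CPM (aged) in muscle. Aged libraries were below young ones in spleen and above them in muscle. In aged mice it was higher in muscle than in spleen by 0.82 ± 0.23 on the log2 scale (edgeR adjusted p = 0.022), a call that ended without aged spleen replicate 1 (0.54) or aged muscle replicate 1 (0.72). In young mice that difference was -0.27 ± 0.23. The age effects were -0.74 ± 0.23 in spleen and 0.36 ± 0.23 in muscle, and their difference of 1.10 ± 0.32 did not pass (edgeR adjusted p = 0.10). The spleen value passed without either young muscle library (-0.74 for each), without filtering (-0.73) and with only the 2 groups fitted (-0.74). The difference passed without young muscle replicate 2 (1.25) and without filtering (1.07), and was 0.96 without replicate 1.

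Scd2, a stearoyl-CoA desaturase gene, was at 33.6 and 39.1 CPM in spleen when young and 44.1 and 35.6 when aged, and at 61.2 and 17.0 CPM in muscle when young and 15.6 and 13.1 when aged. The young muscle libraries lay far apart, and the higher one is the library with 875 CPM of myeloid markers. Scd2 was lower in aged muscle than in aged spleen, at -1.47 ± 0.47 on the log2 scale (edgeR adjusted p = 0.046). The fold change used no young muscle value, but the spread behind its SE and p was estimated over all 8 libraries. That call was kept under 6 of 14 alternatives. It ended without either young spleen library (-1.47 for each), aged spleen replicate 1 or 2 (-1.30 and -1.61), aged muscle replicate 1 or 2 (-1.58 and -1.35), and under the other scalings (-1.42 and -1.41). The age difference in muscle was -1.45 ± 0.47 (edgeR adjusted p = 0.16), -0.24 without young muscle replicate 1. It passed without replicate 2 (-2.08) and without filtering (-1.47).

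Fads1, the delta-5 desaturase gene, showed the same split within young muscle. It was at 33.2 and 9.30 CPM (young) and 9.56 and 18.3 CPM (aged) in spleen, and at 47.5 and 19.5 CPM (young) and 10.8 and 8.46 CPM (aged) in muscle. Its age difference in muscle was -1.80 ± 0.62 (edgeR adjusted p = 0.18), -1.01 without young muscle replicate 1. It passed without replicate 2 (-2.29) and without filtering (-1.82). The part of the other cells of young muscle replicate 1 in the Scd2 and Fads1 values was not tested. Young muscle replicate 1 was the higher of the 2 young muscle libraries for both genes. Leaving it out therefore had to make their fall with age in muscle smaller.

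Acly, which makes cytosolic acetyl-CoA from citrate, varied little, at 99.1 and 98.0 CPM in spleen when young and 76.0 and 90.2 when aged, and at 108 and 103 CPM in muscle when young and 79.7 and 77.4 when aged. Both aged groups were below both young groups, with log2 fold changes of -0.25 ± 0.19 in spleen and -0.43 ± 0.19 in muscle, short of the threshold (edgeR adjusted p = 0.56 and 0.29). Acaca, the acetyl-CoA carboxylase of the cytosol, ranged from 23.5 to 46.1 CPM, and Fasn, the fatty acid synthase, from 20.1 to 41.7. Neither passed in any comparison, nor had an unadjusted p under 0.05 by edgeR.

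The members that the filter left out had few counts in nearly all libraries. Scd1, a desaturase gene close in sequence to Scd2, had 4 and 0 counts (young) and 13 and 8 (aged) in spleen, and 36 and 1 (young) and 3 and 1 (aged) in muscle. The 36 counts were in the library rich in myeloid markers. Fads2, the delta-6 desaturase gene, had 0 counts in both young spleen libraries, which allows up to 0.64 CPM, and 2 in each aged one. In muscle it had 7 and 1 counts when young and 4 and 8 when aged. Such limits cover counting error only.

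**Figure D4:**
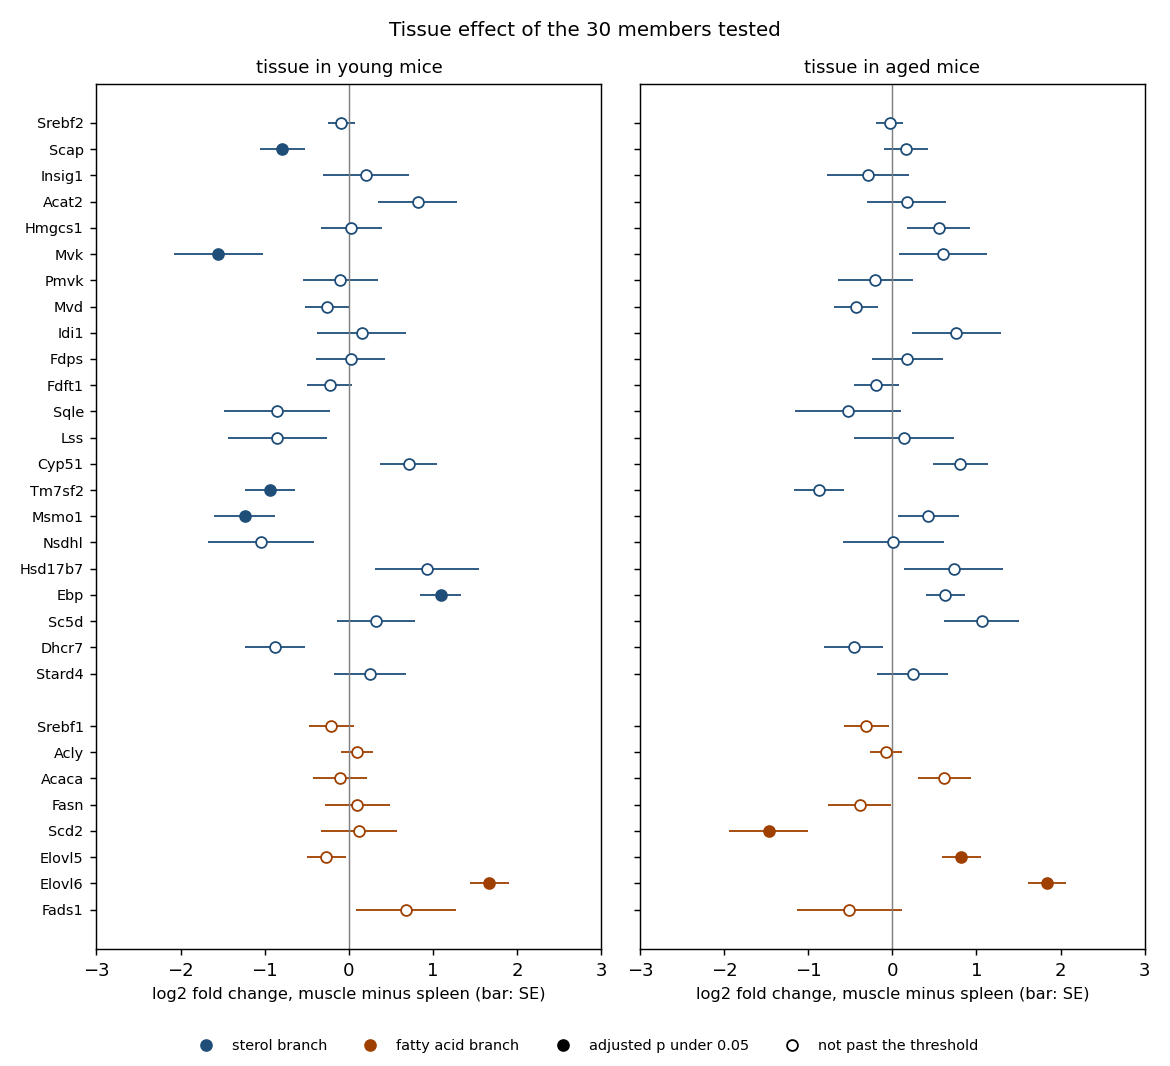
Log2 fold change, muscle minus spleen (horizontal axes), of the 30 members tested in young (left) and aged (right) mice, with bars of 1 SE. Sterol genes are in blue and fatty acid genes in brown, and filled points passed an adjusted p under 0.05. Elovl6 is the point farthest to the right in both, at 1.67 and 1.84, and is filled in both. Also filled in young mice are Ebp (1.09), Scap (-0.79), Tm7sf2 (-0.94), Msmo1 (-1.24) and Mvk (-1.55). In aged mice Elovl5 (0.82) and Scd2 (-1.47) are filled too.

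For muscle against spleen the branch medians ran from -0.19 to 0.17 with all libraries, and 1 of them moved further without young muscle replicate 1. In young mice 6 of 30 members were higher in both muscle libraries than in both spleen libraries and 7 lower, against 31.7% and 30% of all genes. Without young muscle replicate 1 it was 8 and 14, against 43.6% and 41.5%. In aged mice 13 were higher and 6 lower, against 33% and 32.4% of all genes. The medians were -0.09 (sterol) and 0.10 (fatty acid) in young mice and 0.17 and -0.19 in aged mice, against 0.07 and 0.03 over all genes. The sterol median in young mice was 0.02 under library-size scaling, a change of sign, and -0.46 without young muscle replicate 1. Proliferation genes were higher in muscle of young mice for 5 of 15 and lower for 1 (Mcm2, named after its value was seen). Of all genes 11.4% were higher and 10.9% lower. The proliferation genes summed to 425 and 446 CPM in young spleen, and in young muscle to 793 in replicate 1 and 488 in replicate 2. In aged mice 2 of 15 were higher (9.57% of all genes), with sums of 500 and 490 CPM in spleen and 671 and 643 in muscle.

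Among 11 other sterol and isoprenoid synthesis genes, 0 passed with age in muscle by edgeR or DESeq2 (2.02% and 3.36% of all genes). There 0 had an unadjusted p under 0.05 by edgeR, against 15.3% of all genes. In aged spleen Pdss1 fell. Pdss1, which encodes a synthase subunit for the ubiquinone side chain, was at 70.6 and 64.3 CPM in spleen of young and 12.7 and 9.16 in that of aged mice (-2.61 ± 0.43, edgeR adjusted p = 0.0027). Muscle gave 23.7 and 7.49 CPM in young and 14.9 and 17.8 in aged mice. Its spleen call ended when replicate 1 of young (-2.54) or replicate 2 of aged spleen (-2.40) was left out. The difference of its age effects, 2.64 ± 0.61, passed (edgeR adjusted p = 0.033), but dropping any 1 of the 4 spleen libraries (2.44 to 2.91) or an aged muscle library (2.79 and 2.51) ended it, and it was 3.72 without young muscle replicate 1.

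Of 18 genes of sterol uptake and SREBP control, 1 rose and 1 fell with age in each tissue. By edgeR, 2.02% of all genes passed in muscle, and 2.08% rose and 2.17% fell in spleen. Gramd1b, which encodes a carrier of cholesterol from the plasma membrane to the endoplasmic reticulum, rose in both. It was at 308 and 294 CPM in spleen when young and 427 and 490 when aged, and at 89.3 and 99.9 CPM in muscle when young and 199 and 177 when aged, so its 4 groups did not overlap. Its rise was 0.99 ± 0.16 in muscle (edgeR adjusted p = 0.0039) and 0.61 ± 0.15 in spleen (edgeR adjusted p = 0.036). The first was 0.91 without young muscle replicate 1 and ended when only the 2 groups were fitted (1.00), and the second without any 1 spleen library (0.51 to 0.70). It was lower in muscle than in spleen at both ages, by -1.67 and -1.29 on the log2 scale, calls kept under all 14 alternatives. In that list 1 gene was higher and 1 lower in muscle of young mice, and 1 higher and 2 lower in aged mice. The shares of all genes were 11.4% higher and 10.9% lower in young mice, and 9.57% and 9.27% in aged mice. The genes that fell with age were Gramd1a in muscle (-0.68) and the lysosomal lipase gene Lipa in spleen (-0.93). Each lost its call without any 1 spleen library (-0.68 for Gramd1a, -0.82 to -1.03 for Lipa), Lipa under library-size scaling (-0.76), and Gramd1a with only the 2 groups fitted (-0.67) or when replicate 1 of young (-0.64) or replicate 2 of aged muscle (-0.55) was left out.

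Of 12 sterol efflux and storage genes 0 passed with age in either tissue by edgeR or DESeq2, with 1 in each at an unadjusted p under 0.05, when 15.3% of all genes in muscle and 16.7% in spleen had one. In young mice 1 was higher and 1 lower in muscle, when 11.4% of all genes were higher and 10.9% lower. Soat1, which esterifies cholesterol for storage, was higher in muscle by 1.11 ± 0.23 (edgeR adjusted p = 0.0034; 0.99 without young spleen replicate 1, when it did not pass, and 1.16 without young muscle replicate 1). Abcg1, a cholesterol exporter gene, was lower at -1.05 ± 0.28 (edgeR adjusted p = 0.014), a call that ended when replicate 2 of young spleen (-0.82) or of young muscle (-0.73) was left out, and was -1.49 without young muscle replicate 1. Of 25 other fatty acid synthesis genes, 0 passed with age in muscle by edgeR or DESeq2 (2.02% and 3.36% of all genes). In spleen 1 rose, when 2.08% of all genes did. This was Hacd3 (0.73, edgeR adjusted p = 0.046, kept under 10 of 14 alternatives). The medians of this list were 0.17 in muscle and 0.01 in spleen, against -0.44 and -0.33 in the fatty acid branch. Between tissues, 1 of the 25 was higher and 2 lower in muscle of young mice and 1 higher in that of aged mice. The shares of all genes were 11.4% higher and 10.9% lower in young mice, and 9.57% higher in aged mice. Acacb, the acetyl-CoA carboxylase of mitochondria, was higher in muscle at both ages. It was at 1.87 and 4.26 CPM (young) and 3.43 and 1.36 CPM (aged) in spleen, and at 26.2 and 24.5 CPM (young) and 10.8 and 28.3 CPM (aged) in muscle. Its log2 fold changes were 3.0 ± 0.67 and 2.96 ± 0.66 (edgeR adjusted p = 0.0049 and 0.0064). The first ended without young spleen replicate 1 (2.56), was 2.95 without young muscle replicate 1, and the second when replicate 2 of aged spleen (2.49) or of aged muscle (2.11) was left out. The lower ones were Acsl5, which activates fatty acids (-0.71, edgeR adjusted p = 0.029, kept under 7 of 14 alternatives), and Lpin1, a phosphatidate phosphatase gene (-0.80, edgeR adjusted p = 0.049, kept under 1 of 14). Of 20 fatty acid oxidation genes 0 passed with age in either tissue by edgeR or DESeq2. By edgeR 2 in muscle and 3 in spleen had an unadjusted p under 0.05, against 15.3% and 16.7% of all genes. In young mice 2 were higher and 2 lower in muscle, among them Hadhb (-0.92; -0.74 without young spleen replicate 1, when it did not pass) and Slc25a20 (1.05; 0.85 without young spleen replicate 2, when it did not pass). The shares of all genes in young mice were 11.4% higher and 10.9% lower by edgeR. In aged mice 1 was higher and 0 lower, by edgeR and DESeq2, when edgeR gave 9.57% and 9.27% of all genes. The gene higher in aged mice was Cpt1a, the carnitine transferase that admits fatty acids to mitochondria, at 1.04 ± 0.25 (edgeR adjusted p = 0.0094). That call ended without aged spleen replicate 1 (0.86) or aged muscle replicate 2 (0.94).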

How the data were processed

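For the 8 libraries the authors deposited raw counts, 1 whole number per gene symbol and library, not normalized. Per the submitters' processing notes, TopHat2, TopHat, Picard, SAMtools 0.1.19 and HTSeq were used with the mouse build mm10. The role of each tool, the annotation and any use of strand were not given in the sources used here. Overlapping genes may therefore have lost or shared reads. RNA was amplified by in vitro transcription and PCR, per the labels' protocols, which mention no molecular identifiers. A count is thus of reads, not of molecules.

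Low counts were filtered with filterByExpr over the 4 groups. Libraries were scaled by TMM and genes fitted in 1 robust quasi-likelihood model over all 8 libraries (R 4.3.3, edgeR 4.0.16). Tests were two-sided with Benjamini-Hochberg adjustment over 14772 genes. Standard errors were taken from the fold change and its F statistic. The steps were tested on simulated data. Alternatives were DESeq2 1.42.0, other scalings, no filter, only the groups compared, a replicate block, and leaving out each library with the tested genes held. Members and lists were chosen with earlier results of these data known. All 4 SREBP regulators, members past the threshold, the 2 of smallest p per branch and comparison and the 2 of highest mean CPM per branch are given in every library. Related lists name at most 4 genes past the threshold. Positions are from GENCODE M21 and upstream sequences from RefSeq. Some genes of the related lists are not reported here.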

Additional observations from a re-analysis of the deposited data

How the results depend on the processing

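The share of all genes passing moved with the setting. For age in spleen it was 4.24% in the main fit, 4.91% under library-size scaling and 14.9% with only the 2 groups fitted. For age in muscle it was 2.02%, with 3.36% under DESeq2 and 2.98% without filtering. It was lower without any 1 spleen library for age in spleen, and higher without young muscle replicate 2 for age in muscle. For tissue in young mice it was 22.3%, and 21.8% with DESeq2. Of the 30 members, the number passing was as follows where it moved by over 1.5 times. For age in muscle (0) it was 1 with DESeq2 and 2 without filtering, and 0 to 4 without 1 library, the 4 (Srebf2, Mvd, Scd2 and Fads1) without young muscle replicate 2. For age in spleen (2) it was 0 under library-size scaling, 4 with only the 2 groups fitted, and 0 to 3 without 1 library, with 0 without any 1 spleen library. For the difference of age effects (0) it was 2 without filtering and 0 to 2 without 1 library: 1 without young muscle replicate 1 (Mvk at 3.07) and 2 without replicate 2 (Elovl5 at 1.25 and Scd2 at -2.22). For tissue in young mice (6) it was 3 with DESeq2, with library-size scaling and with only the 2 groups fitted, and 1 to 7 without 1 library, the 1 without young spleen replicate 2 and 2 without young muscle replicate 2. It was 3 there when replicate 1 of young spleen or any 1 aged spleen library was left out. For tissue in aged mice (3) it was 1 to 5 without 1 library, 1 without aged spleen replicate 1, and 5 without either young muscle library.

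The fatty acid median for age in spleen was -0.16 under library-size scaling. Without 1 library the sterol median was -0.16 to 0.24 for age in muscle, -0.05 to 0.39 for the difference of age effects and -0.46 to -0.07 for tissue in young mice. The fatty acid median was -0.34 to -0.17 for age in spleen, -0.13 to 0.29 for tissue in young mice and -0.34 to 0.03 for tissue in aged mice. With the replicate number as a block the counts were 0, 2, 0, 4 and 3 in the order above, and the calls of Scap (adjusted p = 0.05) and Mvk (0.053) in young mice ended. Deviations of same-numbered libraries correlated at -0.07 to 0.26 between groups, so the numbers were not taken to pair the samples. The causes of these changes were not tested. Each group has 2 libraries, and members under about 20 CPM rest on few reads, such as Insig1 with 12 counts in young spleen replicate 1.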
